A study of Mus musculus with 9 samples.

Results

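The genes described here are 10 transcriptional outputs and feedback inhibitors of ERK signaling, among the 19044 genes counted by RNA-seq in mouse squamous cell carcinoma (SCC) cells. They were chosen by name, for their known place in the pathway but with earlier results of these data known, and each was matched to its Ensembl identifier through its symbol. ERK is the last kinase of the Ras, Raf and MEK cascade, through which growth factor receptors and integrins signal. Active ERK induces the genes that shut it off: the dual-specificity phosphatases DUSP4 and DUSP5, in the nucleus, and DUSP6, in the cytoplasm, remove the activating phosphates of ERK, while Sprouty and Spred proteins act upstream, on Ras and Raf. *Etv4*, *Etv5* and *Egr1* encode transcription factors that ERK induces, and their mRNA is widely read as a sign of pathway output. Since these genes are outputs and, in part, brakes, their mRNA does not by itself give the amount of active ERK, which was not measured in these libraries.

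FAK, the focal adhesion kinase encoded by *Ptk2*, is a tyrosine kinase and adaptor at integrin adhesions that feeds into Ras and ERK signaling and is also found in the nucleus. The SCC cells came from FVB mice of genotype K14CreER FAK flox/flox, in which tumors had been raised by two-stage chemical carcinogenesis of the skin (dimethylbenz[a]anthracene, then 12-O-tetradecanoylphorbol 13-acetate), and the gene was deleted in the cultured cells with 4-hydroxytamoxifen. The 3 lines were sequenced with 3 libraries each: FAK-/- cells, and FAK-/- cells of a clone that re-expressed wild-type FAK (FAK-WT) or kinase-deficient FAK (FAK-kd) from a retroviral construct. Every line was thus made after deletion of the floxed gene, FAK-WT and FAK-kd cells also carry a hygromycin-selected virus, and each FAK state was represented by 1 line, so that FAK state and line cannot be told apart. Age and sex of the mice were not given. There are 3 comparisons that follow from the design: FAK-WT against FAK-/- cells for FAK as a whole, FAK-WT against FAK-kd cells for its kinase activity, and FAK-kd against FAK-/- cells for the kinase-deficient protein.

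Of the 10 genes, 6 had a start-site window in the RefSeq table for GRCm38.p6. The 250 bases before the start are shown for the 3 whose windows held a CArG box or the letters TGAATG. Serum response factor binds CArG boxes, and TGAATG is a core of the site of Capicua, the repressor that ERK inactivates. In the lines that follow, capitals mark CArG boxes and TGAATG on either strand (CATTCA on the strand shown). The *Dusp5* sequence lies at chr19:53528895-53529144 on the plus strand, the *Dusp6* sequence at chr10:99262981-99263230 on the plus strand, and the *Etv5* sequence, from the second of its 2 start sites, at chr16:22438369-22438618 on the minus strand.
Dusp5: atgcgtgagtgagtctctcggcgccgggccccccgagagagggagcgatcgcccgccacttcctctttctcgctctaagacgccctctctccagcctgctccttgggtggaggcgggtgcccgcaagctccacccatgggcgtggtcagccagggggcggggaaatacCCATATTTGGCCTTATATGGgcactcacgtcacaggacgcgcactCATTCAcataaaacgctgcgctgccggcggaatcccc
Dusp6: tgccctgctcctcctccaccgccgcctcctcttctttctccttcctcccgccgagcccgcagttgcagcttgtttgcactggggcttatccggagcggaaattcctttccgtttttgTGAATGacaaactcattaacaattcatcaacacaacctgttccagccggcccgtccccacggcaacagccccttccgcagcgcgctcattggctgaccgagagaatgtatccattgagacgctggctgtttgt
Etv5: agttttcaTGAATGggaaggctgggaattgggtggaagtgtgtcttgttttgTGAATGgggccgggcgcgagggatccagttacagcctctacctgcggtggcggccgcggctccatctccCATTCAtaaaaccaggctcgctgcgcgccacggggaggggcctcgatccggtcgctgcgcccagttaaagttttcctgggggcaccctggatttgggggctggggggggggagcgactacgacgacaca

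*Dusp5* held 2 adjoining CArG boxes, at -82 to -73 and -72 to -63 relative to its start, and TGAATG at -37 to -32. *Dusp6* held TGAATG once, at -133 to -128, and *Etv5* held it 3 times, at -242 to -237, -198 to -193 and -129 to -124 relative to its second start. In the 32851 windows of 300 bases in the table, which reach 50 bases past the start, 1.63% held a CArG box and 12.7% held TGAATG. The forms TGAATGAA and TGAATGGA of the Capicua octamer, which contain TGAATG, were in no window of these genes. Either was in 2.47% of all windows. Forms of the octamer without TGAATG were not searched for, in these windows or in the others. CCGGAA, an ETS factor core, was found in the *Spry2* window, at 34 to 39 after the start, and in 14.9% of all windows. No match was found in the windows of these genes for the AP-1 site (TGACTCA or TGAGTCA, 5.2% of windows), the CRE (TGACGTCA, 1.79%) or the EGR site (GCGTGGGCG, 0.612%). These are matches of letters on both strands, for motifs chosen after expression values were known, and binding was not measured.

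Levels are given as CPM (counts scaled to library size after TMM normalization), and differences as log2 fold changes with their standard error (SE). An adjusted p is the Benjamini–Hochberg value, over all 19044 genes, of edgeR's quasi-likelihood test with the 9 libraries in 1 fit, and a gene was called at 0.05 or below. FAK-WT replicate 1 held 779755 counts, 2.31% of the median of the other 8 libraries, which held 25304994 to 37264636. The counting error of its values was 6.39% for *Spred1*, which had the most counts of these genes, and 18.9% for *Dusp5*. *Spry1* held 0 counts there, so no such error can be given for it. FAK-/- replicate 3 stood apart from its group: its counts differed from those of replicates 1 and 2 with a chi-square per degree of freedom of 69.6 and 62.3, against 3.36 between those 2. FAK-kd replicate 1 differed from its partners by 19.6 and 21.8, against 5.67 between them. *Ptk2* was at 212.8, 216.1 and 216.0 CPM in FAK-WT, at 21.8, 23.5 and 19.6 CPM in FAK-/- and at 154.8, 158.2 and 176.2 CPM in FAK-kd cells, so the libraries followed their labels, although a count per gene does not separate the virus from what remained of the floxed gene. FAK-kd cells thus carried less *Ptk2* mRNA than FAK-WT cells (log2 fold change of FAK-WT over FAK-kd 0.40, SE 0.077, adjusted p = 0.00163), so that kinase activity and the amount of FAK mRNA cannot be told apart in that comparison.

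The label of the cells was checked against markers. Of 8 keratinocyte and SCC markers measured, *Krt5*, *Krt14*, *Krt18*, *Cdh1* and *Cdh3* were below 1 CPM in every library, while the integrins *Itga6* (169.3 to 297.0 CPM) and *Itgb4* (54.1 to 102.0 CPM) were present. The fibroblast collagen *Col3a1* was at 1287 to 1913 CPM, with 2 of the 7 fibroblast markers (*Dcn*, *Thy1*) below 1 CPM in every library. The summed keratinocyte list ran from 229 to 243 CPM in FAK-WT, 364 to 385 in FAK-/- and 348 to 355 in FAK-kd cells, and the summed fibroblast list from 1605 to 1701, 1345 to 1630 and 1409 to 1988 CPM. The keratinocyte sum was mostly *Itga6* and *Itgb4*, with *Krt8* at most 1.38 CPM. The fibroblast sum was mostly *Col3a1*. Of the 7 fibroblast markers, 1 was called higher and 2 lower in FAK-WT than FAK-/- cells, and 0 and 2 against FAK-kd cells. Of the 8 keratinocyte markers, 1 was called in each of these comparisons, lower in FAK-WT cells. In FAK-kd over FAK-/- cells, 1 marker of each of these 2 lists was called, and it was higher. The shares of all genes called were 18.0%, 17.7% and 7.84%. *Col1a1* was at most 1.64 CPM. *Col1a2* was at 6.29, 4.68 and 3.72 CPM in FAK-WT, 1.68, 2.17 and 3.65 in FAK-/- and 5.55, 7.16 and 5.62 in FAK-kd cells. The 2 lower fibroblast markers were receptors. *Pdgfra* was at 10.1, 11.7 and 11.4 CPM in FAK-WT, 33.5, 32.8 and 26.8 in FAK-/- and 18.3, 27.4 and 28.4 in FAK-kd cells, and *Pdgfrb* at 3.78, 6.87 and 5.85, 25.1, 26.0 and 26.2, and 25.0, 35.6 and 38.9 CPM. FAK-WT cells held less of both than FAK-/- cells (log2 fold change -1.44 and -2.04, adjusted p = 1.35e-05 and 4.28e-07) or FAK-kd cells (-1.11 and -2.40, adjusted p = 0.000157 and 7.35e-08). The 5 immune markers summed to at most 3.68 CPM and the 5 endothelial markers to at most 2.13 CPM in any library. The part of these shifts in the results below was not tested, and in bulk RNA fewer cells of a kind and less RNA per cell cannot be told apart.

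FAK-WT cells held less mRNA than FAK-/- cells for 6 of the 10 ERK feedback and output genes. *Dusp5*, *Dusp6*, *Spry1*, *Spry2*, *Etv4* and *Etv5* were lower, *Dusp4* was higher, and *Spry4*, *Spred1* and *Egr1* were not called. Apart from *Spry1*, which was near the limit of detection, the differences were below 2-fold, from 1.23-fold for *Etv4* to 1.85-fold for *Dusp5*. The 6 lower and 1 higher of 10 stand beside 9.96% and 8.01% of all genes called in those directions, 18.0% in all. The lower members numbered 6 also under DESeq2, with either other scaling and without any 1 FAK-/- library. Without FAK-/- replicate 3, *Spred1* stood in place of *Etv4* among them. They numbered 5 with filterByExpr, with the 2 lines alone in the fit, with a replicate block and without FAK-WT replicate 1 or any 1 FAK-kd library. They numbered 4 without FAK-WT replicate 2 or 3 and 3 after thinning to the shallowest library. The median log2 fold change of the 10 was -0.33, against -0.02 over the 9926 genes with a mean count of at least 100. Of the 9 members with such counts (all but *Spry1*), 6 were called, against 28.0% of genes at that depth, and the libraries of the 2 lines did not overlap for 5 of the 9, against 44.7% of genes at that depth. With a minimum of 2-fold added, 1 member (*Spry1*) passed, against 5.38% of all genes.

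Against FAK-kd cells, 3 of these genes were lower in FAK-WT cells (*Dusp6*, *Spry1*, *Etv5*), *Dusp4* and *Spry4* were higher, and *Dusp5*, *Spry2*, *Spred1*, *Etv4* and *Egr1* were not called. The background was 10.2% of genes lower and 7.58% higher, 17.7% in all, and the median of the 10 was -0.19 against -0.02. Of the 9 members with a mean count of at least 100, 4 were called against 27.4% of genes at that depth, and the libraries did not overlap for 6 of the 9 against 50.9%. *Spry1* again was the single member past 2-fold, against 5.26% of all genes. Between FAK-kd and FAK-/- cells, *Dusp4*, *Dusp5* and *Spry4* were lower in FAK-kd cells and 0 members were higher under edgeR or DESeq2 (0 also at an unadjusted p under 0.05), against 3.88% and 3.97% of all genes (7.84% in all). Of the 9 members, 3 were called against 12.5%, and 4 had libraries that did not overlap against 36.4%. The largest difference there was -0.73, so 0 of the 10 passed 2-fold under either tool, against 2.01% of all genes. Each pair of these comparisons shares the libraries of 1 line, so that their fold changes are not independent. For a single gene, 3 libraries against 3 cannot give an exact two-sided permutation p below 0.1.

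**Figure D1:**
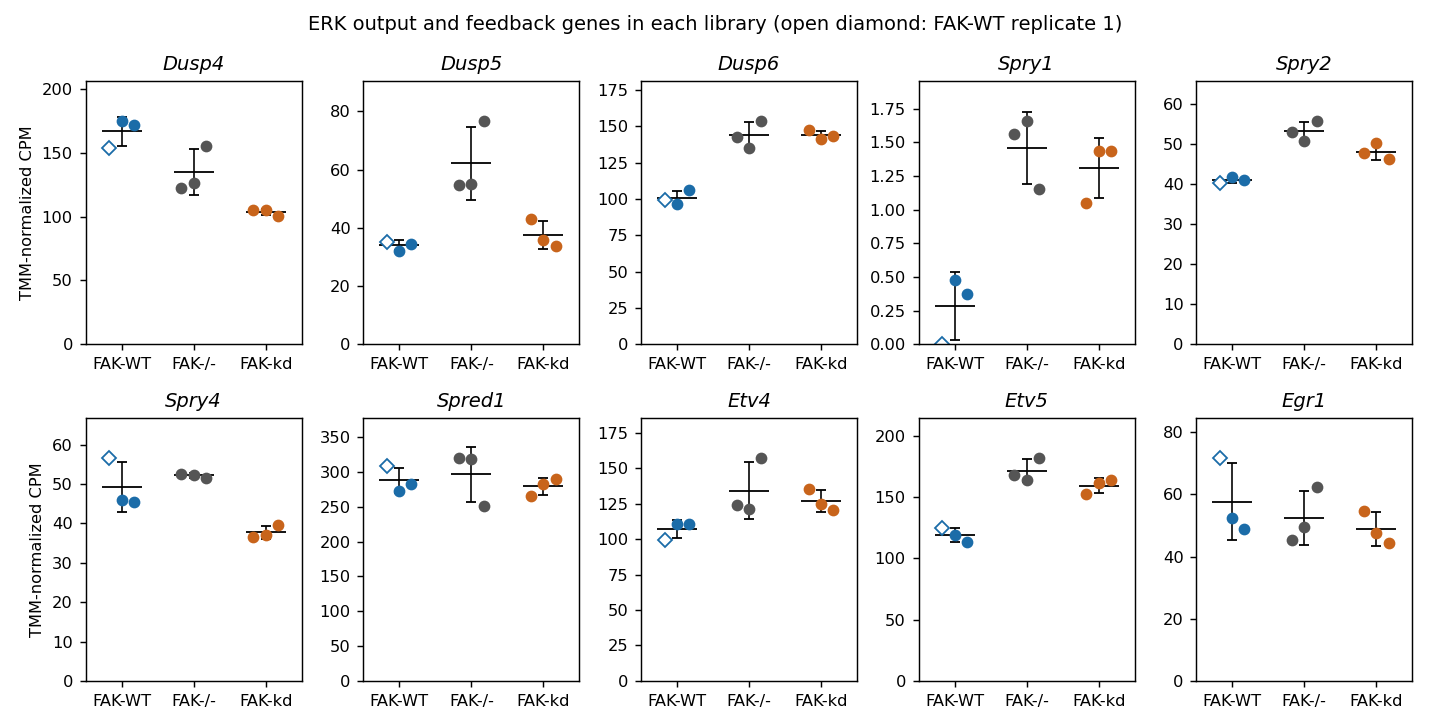
TMM-normalized CPM (vertical axes, from 0) of the 10 genes in each library, by cell line; points are libraries, bars the mean and SD of 3 libraries, and open diamonds the shallow FAK-WT replicate 1. Dusp6 and Etv5 show FAK-WT libraries below those of both other lines, Dusp5 shows the FAK-/- libraries above both, and Dusp4 steps down from FAK-WT to FAK-/- to FAK-kd cells.

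**Figure D2:**
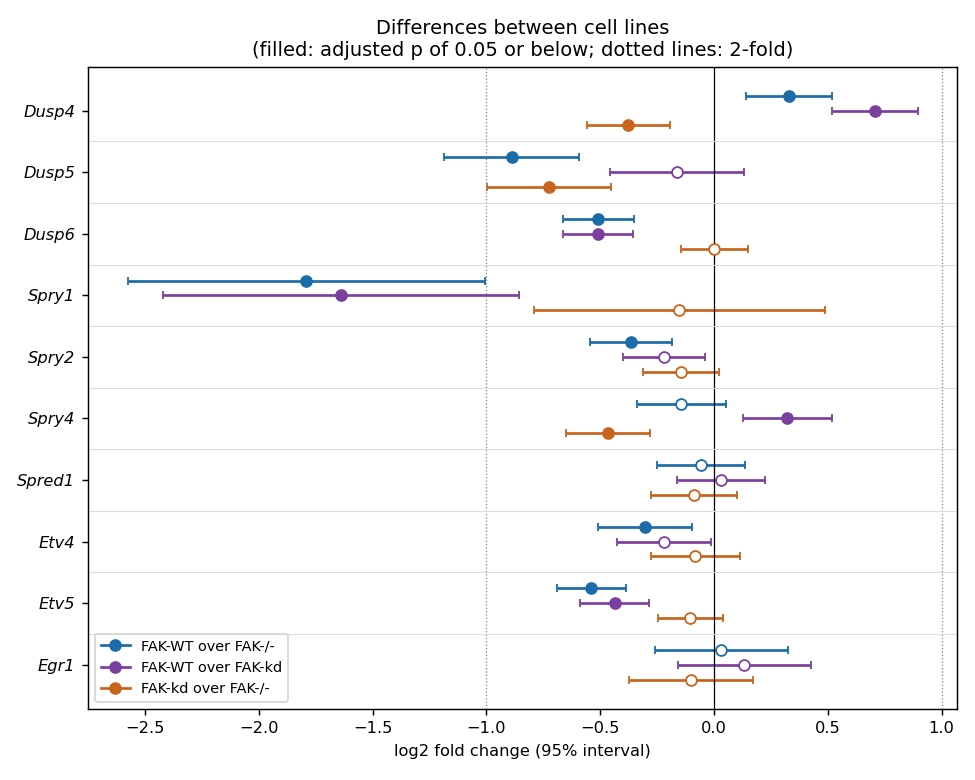
Log2 fold change (horizontal axis) and 95% interval of each gene in the 3 comparisons; filled points have an adjusted p of 0.05 or below, and dotted lines mark 2-fold. The Dusp6 intervals of FAK-WT over FAK-/- and over FAK-kd lie on each other at -0.51, and its FAK-kd over FAK-/- point is at 0.00.

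The phosphatases took 3 different courses across the lines. *Dusp6*, which encodes the cytoplasmic phosphatase specific to ERK, was at 99.5, 96.6 and 106.3 CPM in FAK-WT cells, at 142.6, 135.1 and 153.6 CPM in FAK-/- cells and at 147.5, 141.2 and 143.3 CPM in FAK-kd cells. Each FAK-WT library was below the other 6, which overlapped. FAK-WT cells held 29.7% less *Dusp6* mRNA than FAK-/- cells (log2 fold change -0.51, SE 0.073, adjusted p = 0.000133) and 29.8% less than FAK-kd cells (-0.51, SE 0.073, adjusted p = 0.000125). FAK-kd and FAK-/- cells differed by 0.00 on the log2 scale, with a 95% interval from -0.14 to 0.15.

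*Dusp5*, for a nuclear phosphatase that dephosphorylates ERK and anchors it in the nucleus, separated the FAK-/- line instead. It was at 35.2, 32.1 and 34.6 CPM in FAK-WT, at 54.6, 55.0 and 76.6 CPM in FAK-/- and at 42.9, 35.8 and 33.9 CPM in FAK-kd cells. The FAK-/- libraries were above the other 6, whose ranges overlapped, and replicate 3 was the highest. FAK-WT cells held 46.0% less than FAK-/- cells (log2 fold change -0.89, SE 0.139, adjusted p = 0.000307) and FAK-kd cells 39.6% less (-0.73, SE 0.128, adjusted p = 0.00215). Between FAK-WT and FAK-kd cells the value was -0.16 (95% interval -0.46 to 0.13, adjusted p = 0.475). Without FAK-/- replicate 3 the first 2 values were -0.71 and -0.55, and both calls held.

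*Dusp4*, for a nuclear phosphatase that acts on ERK and also on the stress kinases JNK and p38, was ordered the other way. It was at 153.6, 174.8 and 171.9 CPM in FAK-WT, at 122.6, 126.2 and 155.4 CPM in FAK-/- and at 105.5, 104.9 and 100.8 CPM in FAK-kd cells. The FAK-kd libraries were below all others, and FAK-WT and FAK-/- libraries overlapped at one point, FAK-/- replicate 3 being above FAK-WT replicate 1. FAK-WT cells held 1.63-fold the level of FAK-kd cells (log2 fold change 0.71, SE 0.089, adjusted p = 3.8e-05) and 1.26-fold that of FAK-/- cells (0.33, SE 0.089, adjusted p = 0.0166). FAK-kd cells were lower than FAK-/- cells (-0.38, SE 0.085, adjusted p = 0.0125). The FAK-WT over FAK-/- call was lost without FAK-WT replicate 2 or 3 or FAK-/- replicate 1 or 2, with values from 0.27 to 0.46 and adjusted p from 3.22e-06 to 0.0996 over 16 alternatives. It was 0.46 without FAK-/- replicate 3. The FAK-kd over FAK-/- call was lost without FAK-kd replicate 2 or 3 (values from -0.44 to -0.26 over the alternatives).

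The Sprouty genes, whose products block Ras activation by receptor tyrosine kinases, also differed among themselves. *Spry1* was barely detected. The deep FAK-WT libraries held 18 and 13 counts (0.48 and 0.37 CPM), FAK-/- libraries 52, 42 and 36 counts (1.56, 1.66 and 1.15 CPM) and FAK-kd libraries 35, 48 and 49 counts (1.05, 1.44 and 1.43 CPM). FAK-WT replicate 1 held 0 counts, and 3 counts there would be 3.85 CPM, above every other library, so at its depth it says nothing about this gene. The 2 deep FAK-WT libraries were below the other 6, and FAK-/- and FAK-kd libraries overlapped. The log2 fold change was -1.79 against FAK-/- cells (SE 0.368, adjusted p = 0.00266) and -1.64 against FAK-kd cells (SE 0.367, adjusted p = 0.00477), and -1.76 and -1.60 without FAK-WT replicate 1. The call against FAK-kd cells was lost without FAK-WT replicate 3 (adjusted p from 0.00112 to 1.00 over the alternatives). Annotated genes on the opposite strand overlap *Spry1* (Gm42922), *Dusp5* (AC137853.2) and *Spry4* (Gm27369 and Gm27804). As the library kit does not mark strand, reads from any bases that their transcripts share cannot be told apart. Whether the transcripts share bases was not tested.

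*Spry2* was at 40.3, 41.9 and 41.0 CPM in FAK-WT, at 52.9, 50.8 and 55.7 CPM in FAK-/- and at 47.7, 50.4 and 46.2 CPM in FAK-kd cells. The libraries of the 3 lines did not overlap. FAK-WT cells held 22.3% less than FAK-/- cells (log2 fold change -0.36, SE 0.085, adjusted p = 0.0068), a call lost without FAK-WT replicate 2 or 3 (adjusted p from 0.00149 to 0.643 over the alternatives). FAK-WT and FAK-kd cells differed by -0.22 (95% interval -0.40 to -0.04, adjusted p = 0.0942), and this was called without FAK-/- replicate 3 and with those 2 lines alone in the fit. *Spry4* marked the FAK-kd line. It was at 56.6, 45.9 and 45.5 CPM in FAK-WT, at 52.6, 52.4 and 51.5 CPM in FAK-/- and at 36.6, 37.1 and 39.7 CPM in FAK-kd cells, whose libraries were below all others. FAK-kd cells held 27.6% less *Spry4* mRNA than FAK-/- cells (log2 fold change -0.47, SE 0.086, adjusted p = 0.00304). FAK-WT cells held 1.25-fold the level of FAK-kd cells (0.32, SE 0.092, adjusted p = 0.0233), a call lost without FAK-WT replicate 2 or 3 or FAK-kd replicate 1 or 2 (adjusted p from 0.0022 to 0.672). FAK-WT and FAK-/- cells differed by -0.14 (95% interval -0.34 to 0.05).

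*Spred1*, for a membrane protein that brings neurofibromin to Ras, had the highest CPM of the 10 and varied least. It was at 308.4, 272.8 and 283.0 CPM in FAK-WT, at 320.3, 319.2 and 251.1 CPM in FAK-/- and at 265.9, 282.7 and 289.3 CPM in FAK-kd cells. The ranges of the 3 lines overlapped, with FAK-/- replicate 3 below all other libraries. The log2 fold changes were -0.06, 0.03 and -0.09 for FAK-WT over FAK-/-, FAK-WT over FAK-kd and FAK-kd over FAK-/-, with 95% intervals from -0.25 to 0.14, -0.16 to 0.23 and -0.28 to 0.10. Without FAK-/- replicate 3 the values against FAK-/- cells were -0.18 and -0.20 and were called (adjusted p = 0.0285 and 0.0209, the lowest over the alternatives, which reached 1.00 and 0.925).

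Of the transcription factors, the ETS factors *Etv5* and *Etv4* were lower in FAK-WT cells, and *Egr1* was not called in any comparison. *Etv5* was at 124.6, 119.3 and 113.6 CPM in FAK-WT, at 168.4, 163.9 and 182.1 CPM in FAK-/- and at 152.7, 161.6 and 164.0 CPM in FAK-kd cells. As for *Dusp6*, each FAK-WT library was below the other 6, and the other 2 lines overlapped. FAK-WT cells held 31.2% less than FAK-/- cells (log2 fold change -0.54, SE 0.071, adjusted p = 5.8e-05) and 26.1% less than FAK-kd cells (-0.44, SE 0.071, adjusted p = 0.000402). FAK-kd and FAK-/- cells differed by -0.10 (95% interval -0.25 to 0.04). In its transcripts, 30.3% of the 31-base words also occur in those of Gm4798, a gene not analysed here, and whether this touches its estimated counts was not tested.

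*Etv4* was at 99.5, 110.4 and 110.8 CPM in FAK-WT, at 123.9, 121.5 and 157.2 CPM in FAK-/- and at 135.1, 124.6 and 120.6 CPM in FAK-kd cells. Each FAK-WT library was below the other 6, but FAK-/- replicate 3 was far above its partners. The log2 fold change of FAK-WT over FAK-/- cells was -0.30 (SE 0.097, adjusted p = 0.0405), and it was -0.16 without FAK-/- replicate 3, where the call was lost (adjusted p = 0.0615, range over the alternatives 0.0221 to 0.42). The call was also lost without any 1 of the FAK-WT or FAK-kd libraries. Against FAK-kd cells the value was -0.22 (95% interval -0.43 to -0.02, adjusted p = 0.143), called without FAK-/- replicate 3 or with those 2 lines alone in the fit. *Egr1*, an immediate early gene of a zinc finger factor, was at 71.8, 52.3 and 48.9 CPM in FAK-WT, at 45.5, 49.4 and 62.2 CPM in FAK-/- and at 54.8, 47.5 and 44.3 CPM in FAK-kd cells. The highest library was the shallow FAK-WT replicate 1, and the 3 lines overlapped. Its fold changes were 0.03, 0.13 and -0.10 in the same order, with 95% intervals from -0.26 to 0.33, -0.16 to 0.43 and -0.37 to 0.17.

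Leaving out 1 library at a time divided the calls. Without FAK-WT replicate 2 or 3, that line keeps a single deep library beside the shallow one. Over all genes, calls then fell from 3422 to 2074 and 2016 (FAK-WT over FAK-/-) and from 3376 to 2129 and 2083 (FAK-WT over FAK-kd). Without FAK-kd replicate 2 or 3, those of FAK-kd over FAK-/- cells fell from 1494 to 761 and 712. Losses in these fits were thus seen over all genes, not in the named genes alone. *Dusp5*, *Dusp6* and *Etv5* in FAK-WT over FAK-/- cells and *Dusp4*, *Dusp6* and *Etv5* in FAK-WT over FAK-kd cells kept their direction and call under all 16 alternatives. The other 9 of 15 calls were lost under at least 1 of them, *Dusp5* and *Spry4* in FAK-kd over FAK-/- cells and *Spry1* in FAK-WT over FAK-/- cells under 1 alone, with all libraries thinned to the depth of the shallowest. FAK-/- replicate 3 was the highest FAK-/- library for *Dusp4*, *Dusp5*, *Dusp6*, *Spry2*, *Etv4*, *Etv5* and *Egr1* and the lowest for *Spry1*, *Spry4* and *Spred1*. Without it, FAK-WT over FAK-/- values were 0.46 for *Dusp4*, -0.71 for *Dusp5*, -0.46 for *Dusp6*, -1.93 for *Spry1*, -0.33 for *Spry2*, -0.16 for *Etv4* and -0.50 for *Etv5*. FAK-kd over FAK-/- values were then -0.26 for *Dusp4*, -0.55 for *Dusp5* and -0.47 for *Spry4*, all 3 still called. Without FAK-WT replicate 1, *Etv4* in FAK-WT over FAK-/- cells (-0.28, adjusted p = 0.0811) was the single member that lost its call.

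**Figure D3:**
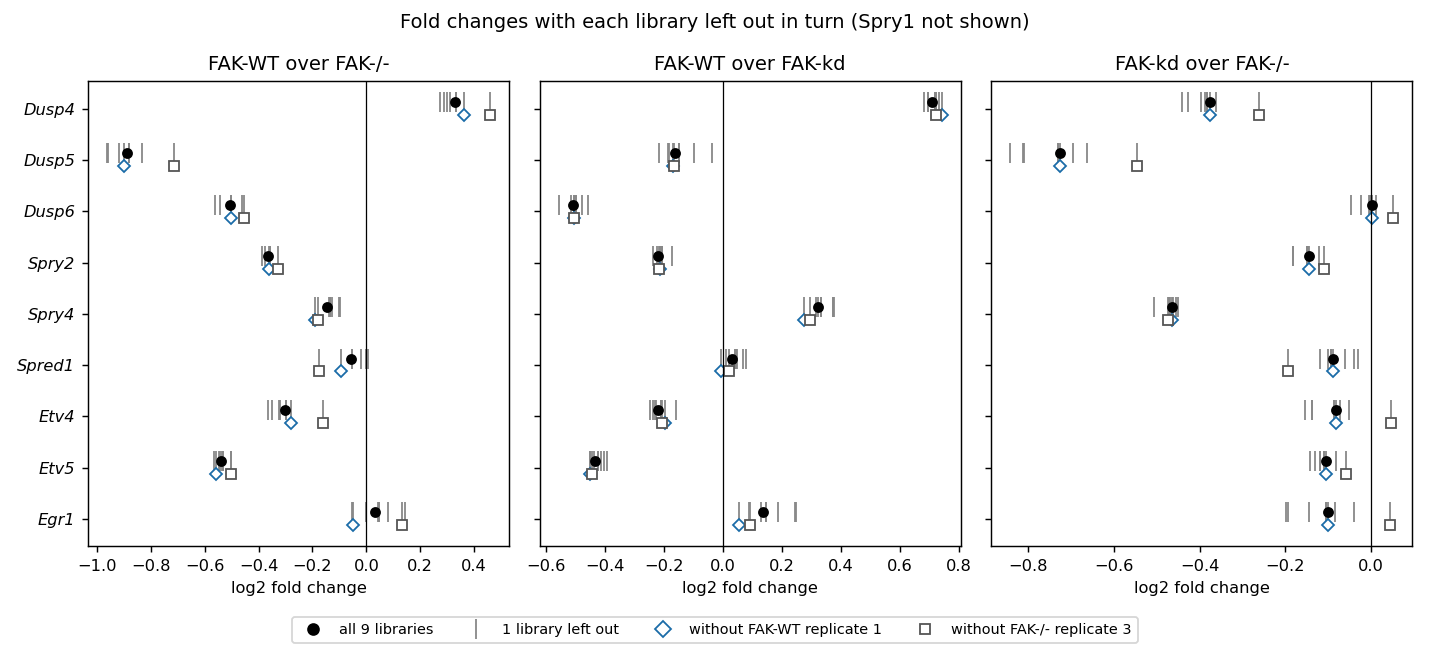
Log2 fold change (horizontal axes, each with its own range) of 9 genes in the 3 comparisons, with all 9 libraries (black points) and with each library left out in turn (grey ticks); open diamonds leave out FAK-WT replicate 1 and open squares FAK-/- replicate 3. Leaving out FAK-/- replicate 3 moved Dusp5 from -0.89 to -0.71 and Etv4 from -0.30 to -0.16 in FAK-WT over FAK-/- cells.

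Per kilobase of the longest coding transcript, and averaged over the 9 libraries, *Etv4* had the highest level (51.2 CPM per kb), followed by *Dusp4* (49.3), *Spred1* (47.9), *Dusp6* (46.3) and *Etv5* (37.7). Their ranges over the 9 libraries overlapped. *Spry2* (22.7 CPM per kb), *Dusp5* (18.0), *Egr1* (11.8) and *Spry4* (9.77) formed a lower tier, and *Spry1* stood at 0.366. Per kilobase, *Spry2* thus led the Sprouty genes analysed, which leave out *Spry3*. In CPM, mean *Spry2* was below *Spry4* in FAK-WT cells (41.1 against 49.3). It was above *Spry4* in FAK-/- (53.2 against 52.2) and FAK-kd cells (48.1 against 37.8). In FAK-WT cells the order therefore rests on the transcript lengths used.

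In GRCm38 the genes lie on 9 chromosomes and share no neighborhood, with *Dusp4* on 8 (34807297 to 34819894, plus strand), *Dusp5* on 19 (53529109 to 53542431, plus), *Dusp6* on 10 (99263231 to 99267489, plus), *Spry1* on 3 (37639947 to 37644598, plus) and *Spry2* on 14 (105891947 to 105896819, minus). *Spry4* and *Egr1* are both on chromosome 18 (38586247 to 38601415, minus, and 34859823 to 34864984, plus), *Spred1* is on 2 (117121374 to 117182279, plus), *Etv4* on 11 (101769742 to 101785371, minus) and *Etv5* on 16 (22381309 to 22439719, minus). All are protein coding.

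The remaining genes of the pathway were read from 5 lists. The shares of all genes called were 18.0% in FAK-WT over FAK-/-, 17.7% in FAK-WT over FAK-kd and 7.84% in FAK-kd over FAK-/- cells. Among genes with a mean count of at least 100 they were 28.0%, 27.4% and 12.5%. Of the 19 cascade genes, from adaptors to the ERK genes, 1 was higher and 4 were lower in FAK-WT than FAK-/- cells, near that share. The guanine nucleotide exchange factor *Sos2*, which loads Ras with GTP, was higher (log2 fold change 0.65, SE 0.088, adjusted p = 8.38e-05), at 45.3, 44.6 and 43.1 CPM against 28.2, 28.9 and 27.4. The scaffold *Ksr1* (-0.69, adjusted p = 0.00173) and *Mapk3*, which encodes ERK1 (-0.38, adjusted p = 0.00316), were lower. Against FAK-kd cells 2 were higher and 4 lower, led by *Ksr1* (-0.94, adjusted p = 0.000103), *Sos2* (0.56, adjusted p = 0.00031) and *Frs2*, an adaptor of fibroblast growth factor receptors (-0.54, adjusted p = 8.06e-05). FAK-kd over FAK-/- cells gave 1 higher (*Frs2*, 0.27) and 1 lower (*Hras*, -0.32). The list medians were 0.00, -0.01 and 0.03, near those over all genes of a mean count of at least 100 (-0.02, -0.02 and 0.01). With any 1 library left out, 10 of 21, 11 of 18 and 4 of 12 calls over the 5 lists held in every case (FAK-WT over FAK-/-, FAK-WT over FAK-kd, FAK-kd over FAK-/-). Those of *Sos2*, *Ksr1* and *Mapk3* named here and of *Frs2* against FAK-kd cells were among them, while the FAK-kd over FAK-/- calls were lost without FAK-kd replicate 2 or 3 (*Hras*) and also without FAK-kd replicate 1, FAK-WT replicate 2 or 3 or FAK-/- replicate 2 (*Frs2*).

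The other brakes of the pathway numbered 11. *Errfi1*, whose product inhibits the EGF receptor, was at 182.5, 173.4 and 175.9 CPM in FAK-WT, at 262.1, 272.8 and 273.6 CPM in FAK-/- and at 326.3, 303.4 and 293.5 CPM in FAK-kd cells. The 3 lines did not overlap, and FAK-WT was lowest (-0.61 and -0.80 against FAK-/- and FAK-kd cells, adjusted p = 9.45e-06 and 6.22e-07). *Dusp9*, for a further ERK phosphatase, was highest in FAK-WT cells, as *Dusp4* was, at 66.7, 76.4 and 71.7 CPM against 39.0, 34.6 and 43.4 in FAK-/- and 53.0, 47.1 and 48.8 in FAK-kd cells (0.90 and 0.55, adjusted p = 8.58e-06 and 0.000768). *Spred3* was lower in FAK-WT than FAK-/- cells (-0.38, adjusted p = 0.0307) and lower still in FAK-kd cells (FAK-kd over FAK-/- -0.75, adjusted p = 0.000365). *Dusp2*, at 0.75 to 2.62 CPM, was lower in FAK-kd cells than in both others (FAK-WT over FAK-kd 1.60, FAK-kd over FAK-/- -1.39), and *Dusp7* was lower in FAK-kd than FAK-/- cells (-0.35). In all, 1 brake was higher and 2 lower in FAK-WT over FAK-/-, 3 and 1 in FAK-WT over FAK-kd, and 1 and 3 in FAK-kd over FAK-/- cells. The shares called among genes with a mean count of at least 100 were 28.0%, 27.4% and 12.5%. The *Spred3* call of FAK-WT over FAK-/- cells was lost without FAK-WT replicate 2 or 3 or FAK-kd replicate 3. That of *Dusp7* was lost without FAK-WT replicate 2 or 3 or any 1 FAK-kd library, and its value was -0.21 without FAK-/- replicate 3 (adjusted p = 0.0208).

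Of 12 factors through which ERK acts on transcription, and their partners, 1 was higher and 4 lower in FAK-WT than FAK-/- cells. Against FAK-kd cells these numbers were 1 and 3. In FAK-kd over FAK-/- cells they were 0 (1 at an unadjusted p under 0.05, 0 under DESeq2) and 2. The shares called among genes with a mean count of at least 100 were 28.0%, 27.4% and 12.5%. *Atxn1*, whose product stabilizes Capicua, had the widest change, at 8.81, 11.7 and 10.9 CPM in FAK-WT, 26.4, 26.6 and 25.8 CPM in FAK-/- and 27.5, 25.7 and 25.1 CPM in FAK-kd cells (-1.24 and -1.23, adjusted p = 3.82e-07 and 4.45e-07). *Elk3*, a ternary complex factor (-0.64 and -0.58), and *Srf*, the serum response factor (-0.50 and -0.44), were also lower than in both other lines, whose mutual differences were -0.06 each. *Cic*, the Capicua gene, was lower in FAK-WT (-0.47, adjusted p = 0.00995) and in FAK-kd (-0.50, adjusted p = 0.0117) than in FAK-/- cells, and the repressor *Erf* was lower in FAK-kd than in FAK-/- (-0.52) and FAK-WT cells (FAK-WT over FAK-kd 0.30). Without FAK-/- replicate 3 the FAK-WT over FAK-/- values were -0.32 for *Srf* (adjusted p = 0.000487) and -0.29 for *Cic* (adjusted p = 0.00586). The FAK-WT over FAK-kd call of *Srf* was lost without FAK-WT replicate 2 or 3 or FAK-kd replicate 1, that of *Erf* without any 1 FAK-WT or FAK-kd library, and the FAK-kd over FAK-/- call of *Cic* without FAK-kd replicate 1.

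Among 18 further ERK-responsive genes, 1 was higher and 6 lower in FAK-WT than FAK-/- cells, and 1 and 1 against FAK-kd cells. In FAK-kd over FAK-/- cells, 0 were higher (also at an unadjusted p under 0.05 and under DESeq2) and 3 lower. The shares called among genes with a mean count of at least 100 were 28.0%, 27.4% and 12.5%. *Phlda1* was at 102.0, 143.4 and 135.8 CPM in FAK-WT, 217.4, 215.1 and 332.2 CPM in FAK-/- and 219.8, 184.0 and 177.5 CPM in FAK-kd cells, and FAK-WT was below both (-0.94 and -0.55, adjusted p = 0.000429 and 0.0206). The AP-1 gene *Fosb* was highest in FAK-/- cells (FAK-WT over FAK-/- -0.88, FAK-kd over FAK-/- -0.89), with 0 counts in the shallow FAK-WT library. The immediate early gene *Ier2* was lower in FAK-WT than FAK-/- cells (-0.51, adjusted p = 0.0302), and *Ier3* was higher than in both others (0.46 and 0.50). *Epha4*, at or below 2.41 CPM, and *Ccnd1*, which encodes cyclin D1, were lower in FAK-kd than in FAK-/- cells (-1.14 and -0.38). Of the 3 phosphatases that favor stress kinases, *Dusp10* was lower in FAK-WT than FAK-/- and FAK-kd cells (-0.47 and -0.91) and higher in FAK-kd than in FAK-/- cells (0.44), and *Dusp8* was higher in FAK-WT than in FAK-kd cells (0.65, adjusted p = 0.0193). Without FAK-/- replicate 3 the *Ier2* value was -0.26 (adjusted p = 0.0306), and its call was lost without FAK-WT replicate 2 or 3 or FAK-kd replicate 3. In FAK-WT over FAK-/- cells *Ier3* also lost its call without FAK-WT replicate 2 or 3 or FAK-/- replicate 1 or 2, and *Fosb* and *Dusp10* without FAK-WT replicate 3. In FAK-WT over FAK-kd cells the calls were lost without FAK-WT replicate 1 or 3 or FAK-kd replicate 1 (*Phlda1*), FAK-WT replicate 2 or 3 or FAK-kd replicate 3 (*Ier3*) and FAK-WT replicate 2 or 3 or FAK-kd replicate 1 (*Dusp8*). In FAK-kd over FAK-/- cells *Fosb* and *Dusp10* lost theirs without FAK-kd replicate 2 or 3, and *Epha4* without any 1 library other than FAK-WT replicate 1 and FAK-/- replicate 3. No list test was run, and the calls of 1 gene do not stand for its list.

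**Figure D4:**
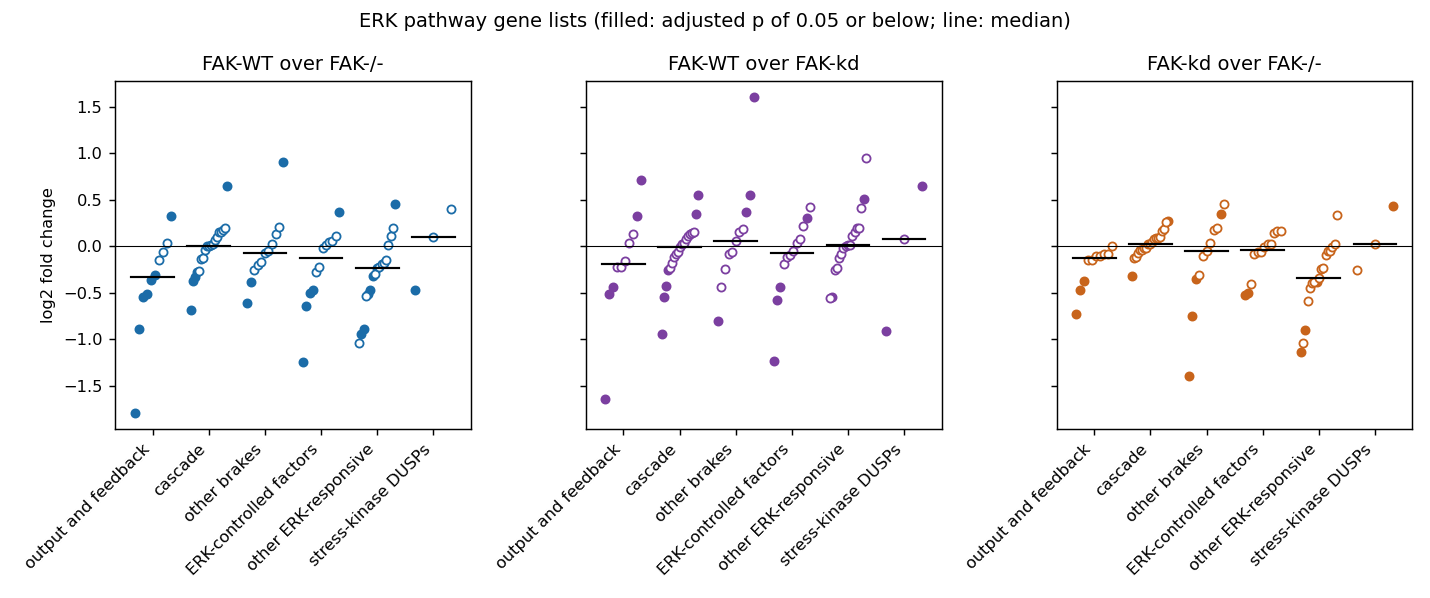
Log2 fold change (vertical axis) of the genes with a mean count of at least 10 in the 10 output and feedback genes and in 5 further ERK pathway lists, by comparison; filled points have an adjusted p of 0.05 or below and short lines are medians. The median of the output and feedback genes is at -0.33, -0.19 and -0.12 in the 3 comparisons, and that of the cascade at 0.00, -0.01 and 0.03.

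*Spry1* had the widest range of mean log2 CPM between the lines, 2.56 against 0.852 for *Dusp5* and 0.0799 for *Spred1*. That width counts the 0 of FAK-WT replicate 1, and it was 1.61 without that library. Among 9866 other genes with a mean normalized count of 100 or more, the 5 whose centered log2 CPM lay closest to *Spry1* over the 9 libraries were *Tgif2* (root-mean-square difference 0.367), *Tmem119* (0.449), *Fblim1* (0.472), *Ephb6* (0.475) and *Nt5dc2* (0.476). *Tgif2* was at 1.26, 6.07 and 5.94 CPM in FAK-WT, 23.97, 19.9 and 27.9 CPM in FAK-/- and 26.2, 24.1 and 25.1 CPM in FAK-kd cells. All 5 were at 1.26 or 2.52 CPM in the shallow FAK-WT library, below the deep FAK-WT libraries, so this likeness rests in part on that library. The nearest genes to *Dusp4* and *Dusp5* were chosen after their values were seen. They were the amino acid transporter *Slc7a5* for *Dusp4* (0.0661), at 456, 499 and 488 CPM in FAK-WT, 365, 375 and 405 in FAK-/- and 314, 318 and 308 in FAK-kd cells, and *Rgs16*, a regulator of G protein signaling, for *Dusp5* (0.104), at 46.6, 45.1 and 44.1, 72.7, 73.8 and 89.2, and 47.1, 44.2 and 43.9 CPM.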

How the data were processed

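RNA-seq libraries of mouse SCC cells, 3 per line, were analysed from the counts that the authors deposited. The authors pseudoaligned paired-end reads with kallisto (0.43.1 in the submitters' processing notes, which name GRCm38 and mm10), summed transcripts to genes with tximport and removed genes without reads; the transcriptome release is not given in the sources used here. The deposited values are estimated counts in whole numbers for 19044 genes, 18856 of which matched a symbol. Counting errors cover counting error only.

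From these, CPM, fold changes and adjusted p-values were computed with edgeR 4.0.16 in R 4.3.3 (TMM, quasi-likelihood test, no filter, the line as only factor). The methods of the study use DESeq2, which was run as an alternative (1.42.0). SEs were taken from the fold change and its F statistic. The spread between libraries may be technical, since the replicates are described as biological but not as separate cultures. Fits were tested on simulated data.

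The 10 members and the pathway and marker lists were chosen with earlier results of these data known. Beyond the members, the text names, of each list and comparison, up to 3 called genes with the largest fold change, the 5 genes most like the member of widest range (centered log2 CPM, prior count 2), and *Ptk2*. *Spry3*, *Trp63*, *Epcam*, *Lum*, *Cd3e* and *Adgre1* were not analysed here. Annotation was GENCODE M21, and promoter windows were from RefSeq. Alternatives were DESeq2, other scalings, filterByExpr, 2 groups, a replicate block, 1 library left out, glmTreat and, chosen after seeing the data, thinning to the shallowest library.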

Additional observations from a re-analysis of the deposited data

How the results depend on the processing

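Of the 480 fold changes of the 10 genes under 16 alternatives, 443 kept their side of the threshold, 31 were no longer called and 6 became called. No value changed direction where it was called in the main fit or in the alternative. Some values called in neither did, as *Egr1* in FAK-WT over FAK-/- cells, from 0.03 to -0.05 without FAK-WT replicate 1. Scaling by library size or by DESeq2's size factors moved the median of all genes by at most 0.0267 on the log2 scale, and neither changed a member's call. DESeq2 kept all 15 member calls. The members called numbered 7, 5 and 3 (FAK-WT over FAK-/-, FAK-WT over FAK-kd, FAK-kd over FAK-/-), and with 1 library left out 4 to 7 (4 without FAK-WT replicate 2 or 3), 3 to 7 (3 without FAK-WT replicate 3) and 2 to 4. The pathway list genes called numbered 21, 18 and 12, from lists of 19, 11, 12, 18 and 3 measured genes. With 1 library left out they numbered 10 to 24, 11 to 30 and 5 to 17. The highest of each was without FAK-/- replicate 3, and the lowest without FAK-WT replicate 3 (10 and 11) and without FAK-kd replicate 2 or 3 (5). Calls over all genes also moved with 1 library left out, from 2016 to 4393, 2083 to 5355 and 712 to 2211. Of genes with a mean count of at least 100, 28.0%, 27.4% and 12.5% were called with all libraries. With every library thinned to the depth of FAK-WT replicate 1, chosen after seeing the data, 4, 3 and 0 members and 11, 8 and 4 pathway list genes were called. The single member past 2-fold, *Spry1*, became 0 in both FAK-WT comparisons under thinning and under glmTreat, and 0 to 1 in FAK-WT over FAK-kd cells with 1 library left out (0 without FAK-WT replicate 3). *Ets2*, named for this after its values were seen, turned from 0.37 to -0.27 in FAK-WT over FAK-/- cells under thinning (adjusted p = 0.639), and fewer counts are the alternative's own construction. Over all genes, 3422, 3376 and 1494 were called, and 1188, 1092 and 380 after thinning; past 2-fold, DESeq2 called 747, 754 and 269 against 1024, 1001 and 382. Replicate numbers did not pair the libraries (mean correlation of deviations -0.0289 over 9 same-numbered pairs, 0.0155 over 18 others). With a replicate block 6, 5 and 3 members and 20, 16 and 12 pathway list genes were called, *Etv4* in FAK-WT over FAK-/- cells being the member lost. The depth of FAK-WT replicate 1 limits what can be said of *Spry1*.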
